A study of Mus musculus with 6 samples.

Results

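The 46 genes described here encode the machinery that moves newly made proteins into the endoplasmic reticulum (ER) and carries them to the Golgi and back. They form a list, set by name, of translocon, signal recognition, signal peptidase, glycosylation, cargo receptor and coat genes. The rule that picks them applies no cut-off to a measured value, but the list was chosen with earlier results of these data known. All 46 had at least 1 read, out of 8129 genes with a read in the series. The tissue was interscapular brown adipose tissue, a thermogenic fat pad of the upper back, from male wild type C57BL/6N mice aged 20 weeks. Polyadenylated RNA was turned into full-length cDNA with the TeloPrime kit, amplified by 27 cycles of PCR, and read on nanopore flow cells, so that a read can span a whole transcript. The control group was 3 mice (mice 2, 9 and 14), for which the husbandry text gives 22 to 24 °C. The cold group was 3 mice (mice 4, 11 and 15), housed singly at 4 °C for 24 h before harvest. The text on cold housing stands on the records of all 6 mice, so titles and treatment labels set the groups. Nothing in the labels states how the control mice were caged, so single housing and cold cannot be told apart. Each library is labelled as 1 mouse.

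A protein that is to be secreted or placed in a membrane is recognised by its signal sequence as it leaves the ribosome. The signal recognition particle brings the ribosome to the Sec61 channel, the TRAP complex assists insertion, signal peptidase removes the signal sequence, and oligosaccharyltransferase attaches sugar chains to asparagine residues. Cargo then leaves the ER in vesicles with a COPII coat, whose assembly is started by the small GTPase SAR1. ARF GTPases load the COPI coat onto the Golgi for the return route, on which KDEL receptors bring escaped ER chaperones back, and p24 proteins act as cargo receptors in both directions. In brown fat this route carries, among others, lipoprotein lipase and adiponectin.

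Library totals were 1014847 to 1849431 reads in the control group and 2923005 to 2982713 reads in the cold group. The smallest cold library exceeded the largest control library, and condition cannot be told apart from depth. All levels below are CPM, normalised read counts relative to the library total after scaling by the trimmed mean of M-values (TMM). A floor of 3 reads stood at 1.62 to 2.96 CPM in control and 1.01 to 1.03 CPM in cold before that scaling. The labelled tissue was checked by Ucp1, the uncoupling protein of brown fat, at 4146 to 4792 CPM in control and 4081 to 4170 CPM in cold, and by Fabp4, a fatty acid carrier of adipocytes, at 32446 to 40206 CPM over all 6 libraries. Other genes on the list of 10 brown adipocyte markers did move: 4 rose and 2 fell by edgeR, where 18.1% of all genes tested rose and 15.1% fell. They are named here after their values were seen. Elovl3 (log2 3.69), Lpl (1.95), Kcnk3 (1.35) and Plin5 (1.31) rose, and Adipoq (-0.88) and Cox8b (-0.98) fell. Lpl encodes lipoprotein lipase and Adipoq adiponectin, 2 cargoes of the route described here. The summed level of 7 white adipocyte markers also moved with the condition, at 66.5, 119 and 93.6 CPM in control mice 2, 9 and 14 and 256, 167 and 177 CPM in cold mice 4, 11 and 15. Nearly all of it was Retn, the resistin gene, which rose (log2 1.07, adjusted p = 0.0121 by edgeR). The calls of Retn (adjusted p = 0.0639) and Plin5 (0.0521) were lost without cold 4, that of Cox8b without cold 11 (0.0527) and without cold 11 and 15 (0.0918), and that of Plin5 also on flow cell 1 alone (0.139) and after thinning to equal depth (0.0721). The part of these shifts in the results below was not tested. The summed level of 10 skeletal muscle markers was 110 to 894 CPM in control, but 172, 2681 and 12003 CPM in cold mice 4, 11 and 15. The marker lists of macrophages, endothelium and fibroblasts each summed to at most 122 CPM, 49.3 CPM and 53.4 CPM in any library, and that of plasma and B cells to 0 in control and at most 0.671 CPM in cold. Any part of muscle RNA in the results below was not tested beyond leaving out cold mice 11 and 15. In whole tissue, fewer cells of a type and less RNA per cell cannot be told apart.

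In the cold, 4 of the 46 genes rose, 1 fell, 17 did not pass the test, and 24 had too few reads to be tested. The genes that rose were Tmed5, Sar1b, Arf1 and Rpn1, by 2.91, 2.64, 2.00 and 2.39 times as fitted, and the gene that fell was Ssr4, by 1.55 times. These are a p24 protein, the GTPase that starts the COPII coat, the GTPase that loads the COPI coat, a subunit of oligosaccharyltransferase and a subunit of TRAP. The test was the quasi-likelihood F test of edgeR with Benjamini-Hochberg adjustment over all 2093 genes that passed the count filter, and a gene was called at an adjusted p under 0.05. Of the 22 tested members, 22.7% were called, against 33.2% of all genes tested. By direction, 18.2% of them rose against 18.1% of all genes tested, and 4.55% fell against 15.1%. Their count of rising genes is therefore at the background of these libraries. The median log2 change was 0.05 over the 22 genes and 0.04 over all genes tested, and the median size of the change was 0.41 against 0.55. At an unadjusted p under 0.05 there were 6 members and 920 genes in all. The 3 cold libraries lay all to 1 side of the 3 controls in 9 of the 22 genes, which is 40.9% against 47.8% of all genes tested. Among the 9 is Sec61a1, which passed the count filter through its cold libraries alone, so its separation was partly fixed by passing.

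In the GRCm38 annotation of GENCODE M21, Tmed5 (ENSMUSG00000063406) lies at chr5:108106366-108132620 (minus strand) and Sar1b (ENSMUSG00000020386) at chr11:51763687-51791925 (plus strand). Arf1 (ENSMUSG00000048076) is also on chromosome 11, at chr11:59211412-59228270 (minus strand). Rpn1 (ENSMUSG00000030062) lies at chr6:88084482-88105304 (plus strand) and Ssr4 (ENSMUSG00000002014) at chrX:73787028-73790830 (plus strand). Reads were counted on the spliced exons of annotated transcripts of these genes.

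Which of the 46 could be tested is itself a limit on these counts. The filter asked for about 4.19 CPM in at least 3 libraries, and 16 of the 22 tested genes exceeded it in all 6. Sec61a1 passed it through its cold libraries alone, so its direction was partly fixed by passing. Leaving out cold mice 11 and 15 together, a choice made after seeing the data, left 1 cold library. The log2 changes were then 1.59 for Tmed5, 1.26 for Sar1b, 1.14 for Arf1, 1.15 for Rpn1 and -0.72 for Ssr4.

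**Figure D1:**
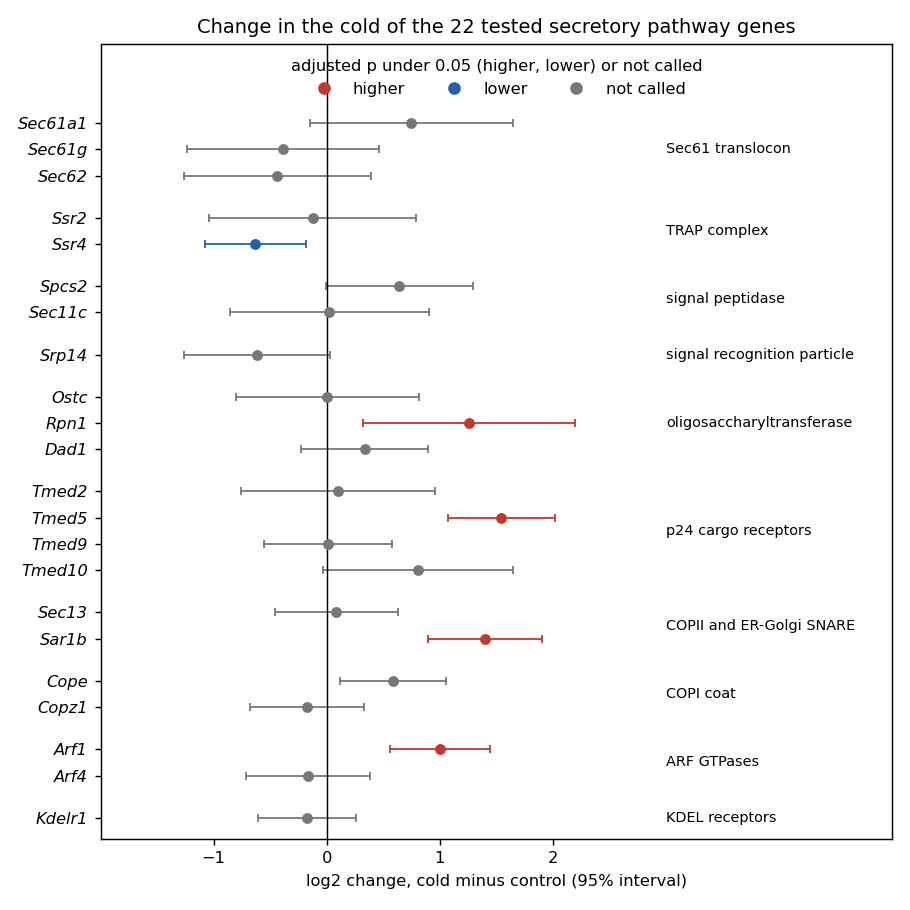
Log2 change in the cold (horizontal axis, cold minus control) of the 22 tested genes, grouped by role, with points at the fitted change and bars at its 95% interval. The intervals of Tmed5, Sar1b, Arf1 and Rpn1 lie above 0 and that of Ssr4 lies below 0, and Cope is the gene whose interval excludes 0 without a call after adjustment.

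On the side of the channel and its partners, none of the tested subunits of Sec61 or of the signal recognition particle was called. Sec61a1, the pore-forming subunit, stood at 2.77 ± 0.63 CPM (SD, n = 3) in control and 4.87 ± 0.66 CPM (SD, n = 3) in cold, with a log2 change of 0.75 (adjusted p = 0.181 by edgeR's quasi-likelihood test). Sec61g, a small subunit of the channel, had a log2 change of -0.39 with a 95% interval of -1.24 to 0.46. A transcribed pseudogene, Gm10177, is identical to Sec61g over 373 bases and held 163 reads against 97 for Sec61g, so the split of reads between them is uncertain. Sec62, an auxiliary protein of the channel, had a log2 change of -0.44 (-1.26 to 0.39). Srp14, which with Srp9 pauses translation until the ribosome docks, went from 19.7 ± 4.28 to 12.6 ± 3.64 CPM (SD, n = 3 each), a log2 change of -0.62 (-1.26 to 0.03, adjusted p = 0.129 by edgeR). The groups overlapped, since cold mouse 15 at 16.8 CPM lay above control mouse 2 at 15.1 CPM. Sec61b, Sec63, Srp9, Srp19, Srp68 and Srp72 had between 3 and 36 reads each over the 6 libraries and were not tested.

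Ssr4, the TRAP subunit called delta, fell. It read 110.3, 103.8 and 90.6 CPM in control mice 2, 9 and 14, and 59.8, 64.2 and 72.5 CPM in cold mice 4, 11 and 15. Every cold library lay below every control library, and the gap between the groups was about as wide as the range within either of them. The means were 102 ± 10.1 and 65.5 ± 6.46 CPM (SD, n = 3 each), and the log2 change was -0.63 ± 0.20 (SE), with an adjusted p of 0.0337 by edgeR's quasi-likelihood test. This call was lost in 8 of 15 alternative analyses, among them scaling by library totals alone (log2 -0.57, adjusted p = 0.0562), leaving out control 2 or 9 or any single cold library, and leaving out cold mice 11 and 15 (adjusted p = 0.275). The log2 change stayed between -0.74 and -0.51 in all 15. Of the other TRAP subunits, Ssr2 had a log2 change of -0.13 (-1.04 to 0.79) and 60 reads, while Ssr1 with 30 reads and Ssr3 with 8 reads were not tested.

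Most Ssr4 reads were assigned to 1 of 2 tested transcripts of the gene, which differ at a splice junction. The transcript Ssr4-208 begins its second exon 3 bases upstream of Ssr4-201, at chrX:73788835 against chrX:73788838 (GRCm38, plus strand). Its first exon is also 34 bases longer and its last exon 2 bases shorter. The letters around the junction, read from the GRCm38 genome through GENCODE M21, are printed because the junction is 1 of the places where the transcripts differ. They are as follows, with the 3 additional bases in capitals.
Ssr4-208: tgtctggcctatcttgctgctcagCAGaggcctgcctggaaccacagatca
Ssr4-201: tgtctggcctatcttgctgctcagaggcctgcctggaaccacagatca
The additional bases repeat the last 3 bases of the exon before. How reliably reads were assigned between the transcripts was not tested. Ssr4-208 had 183, 90 and 122 reads in control mice 2, 9 and 14 and 138, 154 and 175 reads in cold mice 4, 11 and 15, from libraries of larger totals. In CPM that was 88.2 ± 13.4 in control and 51.6 ± 5.69 in cold (SD, n = 3 each), with no overlap between the groups. Its log2 change was -0.77 ± 0.22 (SE), with an adjusted p of 0.0166 by edgeR over all 2787 transcripts tested, of which 32.7% were called. That call was lost in 5 of 10 alternatives, without control 9, cold 4 or cold 11, without cold 11 and 15 together, and with no count filter. Ssr4-201 stood at 10.6 ± 4.29 and 11.8 ± 1.75 CPM (SD, n = 3 each), a log2 change of 0.13 (-0.59 to 0.84). The share of Ssr4 reads held by Ssr4-208 was 86.6% over the pooled control reads and 78.9% over the pooled cold reads. A change in that share was not called (adjusted p = 1 by edgeR's diffSpliceDGE), and control mouse 14, at 80.8%, was close to the cold libraries.

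Signal peptidase had no called gene, but 1 of its transcripts rose. Spcs2, an accessory subunit of the enzyme, read 30.8, 22.6 and 13.8 CPM in control mice 2, 9 and 14 and 33.9, 32.1 and 39.2 CPM in cold mice 4, 11 and 15. The groups did not overlap, although control 2 came within a few CPM of cold 11. The log2 change was 0.64 ± 0.30 (SE), with an adjusted p of 0.119 by edgeR's quasi-likelihood test. It did pass in the reads of flow cell 2 (log2 0.85, adjusted p = 0.0431) and without control 2 (0.97, adjusted p = 0.0308). Sec11c, a catalytic subunit, stood at 5.35 ± 2.25 and 5.76 ± 1.26 CPM (SD, n = 3 each) with a log2 change of 0.02 (-0.86 to 0.90). Its paralogue Sec11a had 5 reads and overlaps Nmb on the same strand, which had 27, and neither Sec11a nor Spcs1 (27 reads) nor Spcs3 (1 read) was tested.

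Reads of Spcs2 were spread over 3 tested transcripts. Spcs2-201 has 5 exons, and Spcs2-204 and Spcs2-210 have 6 each. How Spcs2-204 differs from Spcs2-210 was not examined. Spcs2-204, annotated as a target of nonsense-mediated decay, has an exon that Spcs2-201 lacks. It is number 5 of 6, of 133 bases at chr7:99840692-99840824 (GRCm38, minus strand). In the annotation the reading frame of Spcs2-204 ends 37 bases into that exon, at a TGA that lies 93 bases before the last exon junction. Its coding length is 531 bases against 678 in Spcs2-201. Spcs2-204 had 19, 8 and 9 reads in control mice 2, 9 and 14 and 56, 49 and 56 reads in cold mice 4, 11 and 15. On the CPM scale these were 10.3, 8.22 and 5.40 in control and 18.8, 16.2 and 18.4 in cold, with every cold library above every control library. Its log2 change was 1.15 ± 0.31 (SE), with an adjusted p of 0.0141 by edgeR over the tested transcripts, and the call was lost in 3 of 10 alternatives, without control 14 (adjusted p = 0.0648), without cold 4 (0.0521) and without cold 11 and 15 (0.0948). Spcs2-201 had a log2 change of 0.05 (-0.88 to 0.97) and Spcs2-210 one of 0.35 (-0.53 to 1.23). The share of Spcs2 reads held by Spcs2-204 was 33.3%, 36.4% and 39.1% in control mice 2, 9 and 14 and 55.4%, 50.5% and 47.1% in cold mice 4, 11 and 15. These shares do not overlap, but the test of the share did not call Spcs2 (adjusted p = 1 by edgeR's diffSpliceDGE). That test ran on 3 members (Ssr4, Spcs2 and Arf1), called 0 of them, and found 0 at an unadjusted p under 0.05, where 1.67% of the 539 genes with at least 2 tested transcripts were called and 26 had an unadjusted p under 0.05.

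**Figure D2:**
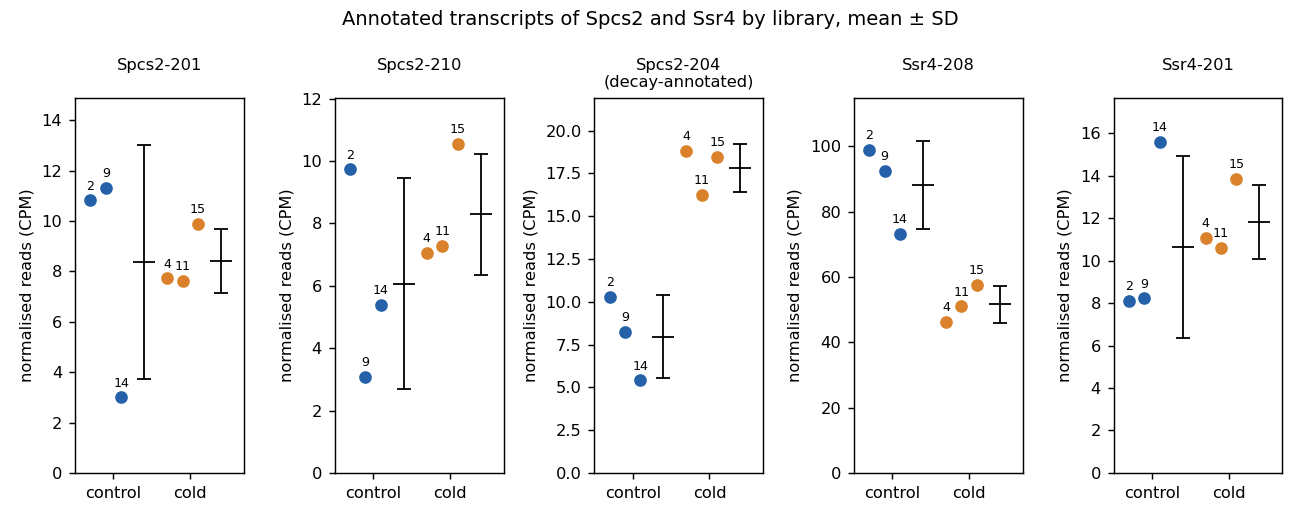
Normalised reads (CPM, linear axes from 0) of 3 transcripts of Spcs2 and 2 of Ssr4 in each library, with points numbered by mouse and the bar beside them giving mean ± SD of 3 libraries. Spcs2-204 is 5.40 to 10.3 CPM in control and 16.2 to 18.8 CPM in cold, while Spcs2-201, Spcs2-210 and Ssr4-201 overlap between the groups.

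Of the subunits of oligosaccharyltransferase, Rpn1 rose. Rpn1 encodes ribophorin I, a subunit that presents some membrane proteins to the catalytic site. It read 2.7, 7.2 and 5.4 CPM in control mice 2, 9 and 14, and 10.4, 8.3 and 15.8 CPM in cold mice 4, 11 and 15. The groups did not overlap, but control 9 and cold 11 were close, and these values rest on 5, 7 and 9 reads in control and 31, 25 and 48 reads in cold. The log2 change was 1.26 ± 0.42 (SE) with an adjusted p of 0.0410 by edgeR's quasi-likelihood test. The call was lost in 7 of 13 alternatives, including DESeq2 (1.19, adjusted p = 0.0767), flow cell 1 alone (0.61, adjusted p = 0.372) and leaving out control 2 (0.89, adjusted p = 0.145), control 14, cold 4, cold 15, or cold 11 and 15 together (1.15, adjusted p = 0.192). Dad1, a small membrane subunit, stood at 21.9 ± 2.54 and 27.9 ± 5.94 CPM (SD, n = 3 each) with a log2 change of 0.34 (-0.22 to 0.90). Ostc, which belongs to the form of the enzyme bound to the channel, had a log2 change of 0.00 (-0.80 to 0.81). Rpn2 (22 reads), Ddost (21 reads) and the catalytic subunit Stt3a (1 read) were not tested.

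Among the p24 cargo receptors Tmed5 rose, and it had the largest fitted change of the 22 genes. It read 64.4, 49.3 and 72.6 CPM in control mice 2, 9 and 14, and 182.3, 175.4 and 188.1 CPM in cold mice 4, 11 and 15. The lowest cold library was well above the highest control, and the 3 cold libraries were close to each other. The means were 62.1 ± 11.8 and 182 ± 6.35 CPM (SD, n = 3 each), and the log2 change was 1.54 ± 0.21 (SE, 95% interval 1.07 to 2.01), with an adjusted p of 0.000414 by edgeR's quasi-likelihood test. On both flow cells every cold library had more reads than every control library. The first gave 22 to 68 reads per control library and 280 to 310 per cold library. These are raw reads, and the cold libraries have larger totals. The gene overlaps Mtf2 on the opposite strand over 395 bases, where Mtf2 had 1 read against 1932 for Tmed5.

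The other p24 genes showed no called change. Tmed9 went from 60.7 ± 19.3 to 60.5 ± 6.54 CPM (SD, n = 3 each), a log2 change of 0.01 (-0.56 to 0.58). The interval of Tmed9 and that of Tmed5 do not meet, but the difference between the genes was not tested. Tmed10, a partner that p24 complexes need, read 4.33, 4.11 and 4.20 CPM in control mice 2, 9 and 14 and 9.73, 5.63 and 6.92 CPM in cold mice 4, 11 and 15, with no overlap, and its log2 change of 0.80 (-0.04 to 1.64) was not called (adjusted p = 0.128 by edgeR). Tmed2 had a log2 change of 0.10 (-0.75 to 0.96). Tmed3, Tmed4 and Tmed7 had 4, 10 and 5 reads and were not tested. The summed level of the 7 p24 genes was 135 ± 13.6 CPM in control and 258 ± 10.9 CPM in cold (SD, n = 3 each), and Tmed5 makes up most of the difference.

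In the COPII group Sar1b rose. Sar1b, the SAR1 form that in gut and liver is required for export of large lipoproteins, read 64.4, 47.3 and 73.8 CPM in control mice 2, 9 and 14, and 144.7, 185.0 and 162.4 CPM in cold mice 4, 11 and 15. All cold libraries lay above all controls with a wide gap. The means were 61.8 ± 13.5 and 164 ± 20.2 CPM (SD, n = 3 each), and the log2 change was 1.40 ± 0.23 (SE, 0.90 to 1.90) with an adjusted p of 0.000996 by edgeR's quasi-likelihood test. Its paralogue Sar1a, of which there were 58 reads in all, read 3.25, 5.14 and 4.20 CPM in control and 3.36, 3.31 and 6.59 CPM in cold, with overlapping groups, and missed the filter. In mean CPM, Sar1b and Sar1a were at 61.8 and 4.19 in control and at 164 and 4.42 in cold. Divided by the length of the counted transcripts, they were at 51.5 and 1.64 CPM per kb in control. In cold they were at 137 and 1.73 CPM per kb. Sec13, an outer coat protein of COPII, stood at 19.4 ± 3.47 and 20.7 ± 2.17 CPM (SD, n = 3 each), a log2 change of 0.09 (-0.46 to 0.63). The SNARE Sec22b had 25 reads and was not tested.

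Arf1, the GTPase that recruits the COPI coat, rose. It read 138.5, 152.1 and 188.4 CPM in control mice 2, 9 and 14, and 340.0, 326.4 and 291.5 CPM in cold mice 4, 11 and 15. The groups were far apart, with the lowest cold library above the highest control by more than either group's range. The means were 160 ± 25.8 and 319 ± 25.0 CPM (SD, n = 3 each), and the log2 change was 1.00 ± 0.20 (SE, 0.56 to 1.44), with an adjusted p of 0.00332 by edgeR's quasi-likelihood test. Of its 2 tested transcripts, Arf1-201 held 93.5% of the pooled control reads and 95.5% of the pooled cold reads and rose (log2 1.03, adjusted p = 0.00217 by edgeR). Arf1-202 had a log2 change of 0.44 (-0.22 to 1.09). Arf4, a second ARF of the early Golgi, stood at 32.6 ± 2.96 and 29.2 ± 6.92 CPM (SD, n = 3 each), a log2 change of -0.17 (-0.71 to 0.38). The calls of Tmed5, Sar1b and Arf1 held in all 15 alternatives, where their log2 changes were 1.38 to 1.66, 1.21 to 1.52 and 0.89 to 1.14, and their adjusted p were at most 0.00347, 0.0238 and 0.0304.

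**Figure D3:**
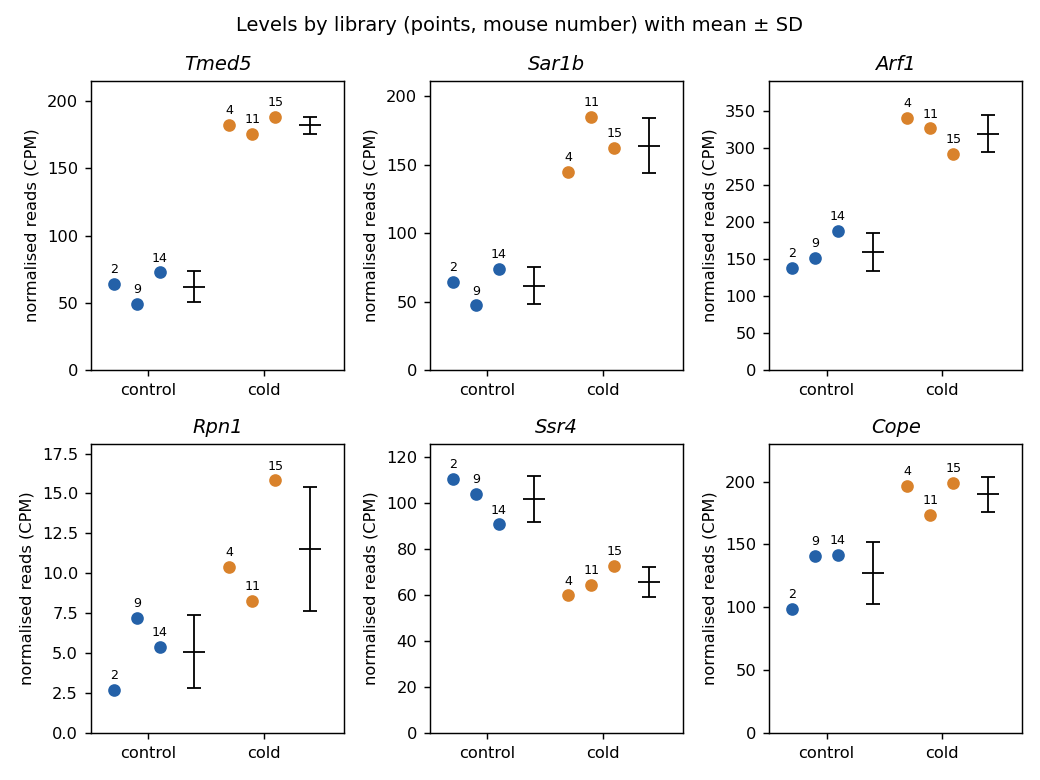
Normalised reads (CPM, linear axes from 0) of the 5 called genes and of Cope in each library, with points numbered by mouse and the bar beside them giving mean ± SD of 3 libraries. The cold libraries lie above the controls for Tmed5, Sar1b, Arf1, Rpn1 and Cope and below them for Ssr4, and the gap is narrow for Rpn1 (7.2 against 8.3 CPM).

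The subunits of the COPI coat itself were not called. Cope, the epsilon subunit, read 98.4, 140.8 and 141.6 CPM in control mice 2, 9 and 14, and 196.7, 173.8 and 199.3 CPM in cold mice 4, 11 and 15. The groups did not overlap. The log2 change was 0.58 ± 0.21 (SE, 0.11 to 1.05) and the adjusted p was 0.0560 by edgeR's quasi-likelihood test, with a call under scaling by library totals alone (0.66, adjusted p = 0.0335) and on flow cell 2 alone (0.66, adjusted p = 0.0463). Tested as a transcript, Cope-201 had a log2 change of 0.59 and an adjusted p of 0.0487, a call that was lost without any 1 of the 6 libraries. Copz1, the zeta subunit, stood at 151 ± 35.7 and 133 ± 13.8 CPM (SD, n = 3 each) with a log2 change of -0.17 (-0.68 to 0.33). Copa, Copb1, Copb2 and Copg1, the large coat subunits, had 5, 1, 36 and 16 reads and were not tested. The retrieval receptor Kdelr1 stood at 129 ± 9.87 and 114 ± 11.7 CPM (SD, n = 3 each), a log2 change of -0.17 (-0.61 to 0.26). Kdelr2 had 21 reads, 6 in control and 15 in the larger cold libraries, and was not tested. In CPM it stood at 1.75 ± 2.04 in control and 1.66 ± 0.87 in cold (SD, n = 3 each).

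By transcript, 101 transcripts of the 46 genes had a read and 23 could be tested. Of these 6 rose and 1 fell, 30.4% called against 32.7% of all transcripts tested. Those that rose were Tmed5-201, Sar1b-201, Arf1-201, Rpn1-201, Spcs2-204 and Cope-201, and the one that fell was Ssr4-208. Only Spcs2-204 and Cope-201 belong to genes that were not called.

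Levels of different genes were set side by side per kilobase, dividing each gene's CPM by the mean length of its counted transcripts. A read here can span a whole transcript, so the number of reads need not grow with length. The division can therefore place long genes too low. In control the order began with Ssr4 at 123 CPM per kb, Cope at 97.4, Copz1 at 89.4, Arf1 at 88.2, Kdelr1 at 80.9, Sar1b at 51.5 and Tmed9 at 42.9. In cold it began with Arf1 at 176 CPM per kb, Cope at 146, Sar1b at 137, Ssr4 at 79.5, Copz1 at 79.2, Kdelr1 at 71.7 and Tmed5 at 48.2. Differences between genes in these orders were not tested, and neighbours such as Copz1 and Arf1 in control, or Ssr4 and Copz1 in cold, lie within the spread between libraries.

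The 46 genes held 17760 of 13456800 reads, or 0.132%. The 8 with the most reads held 83.9% of those, and the 24 untested genes together held 417 reads, 2.35%. Reads that were not adjusted for length differed widely within complexes, from 1 for Copb1 to 2271 for Cope in the COPI coat and from 8 for Ssr3 to 1048 for Ssr4 in TRAP. Longer transcripts had fewer reads, with a Spearman correlation of -0.38 over the 46 genes, given as a description across genes that share libraries. The 19 genes with a mean counted length over 2500 bases had 2475 reads in all, a median of 22, and the 27 shorter genes had 15285 reads, a median of 91. Tmed5, at a mean length of 3771 bases and 1932 reads, was an exception among the long genes. The part of length in the differences between subunits was not tested.

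**Figure D4:**
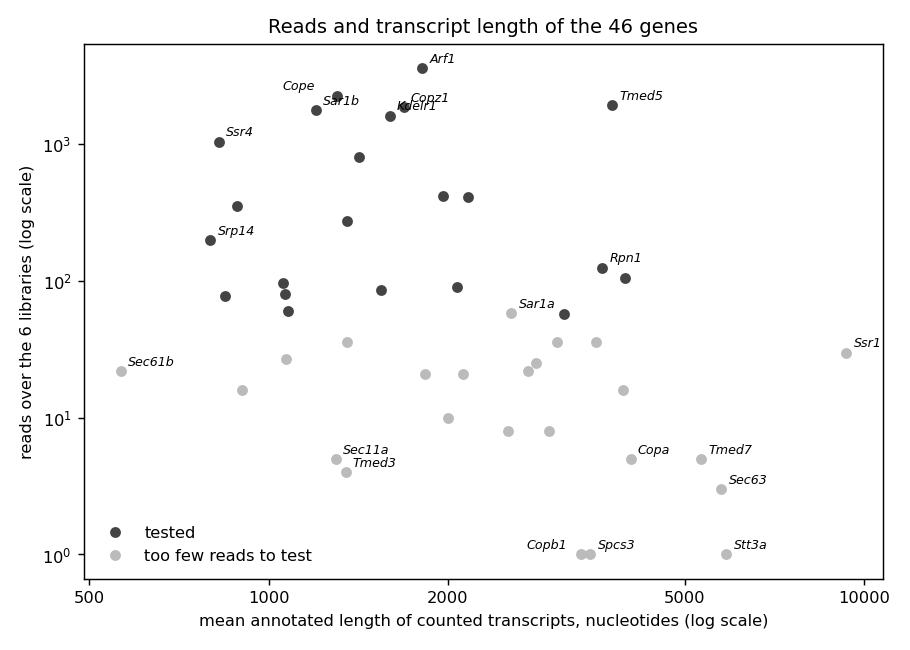
Reads over the 6 libraries (vertical, log scale) against the mean annotated length of the counted transcripts (horizontal, nucleotides, log scale) for the 46 genes, with tested genes in dark grey and untested genes in light grey. Most genes over 2500 bases have few reads, with Tmed5 at 1932 reads as the exception, and Stt3a, Copb1 and Spcs3 have 1 read each.

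Promoter sequences from RefSeq (GRCm38.p6; 250 bases before to 50 after each annotated start) matched 36 of the 46 genes, with 38 start sites. Genes of the ER stress response are known to carry the ER stress element, CCAAT and CCACG with 9 bases between them, which binds ATF6 and XBP1 with NF-Y. On both strands, 0 of the 36 genes held it, against 0.119% of 32851 promoters of the same length and 7 of 18 ER chaperone and stress genes, among them Hspa5 and Calr. The related ERSE-II element, ATTGG and CCACG with 1 base between them, was in 0 of the 36 genes and in 0.0365% of all promoters. It was in 2 of the 18 ER chaperone and stress genes. The letters TGACGTGG, a form bound by XBP1 and ATF6, were in the promoters of Arf1, Copb1 and Copb2. Of these genes, Copb1 and Copb2 had too few reads to be tested. The share is 3 of 36 genes or 8.33%, against 0.714% of all genes with a promoter in the table. Of the 18 ER chaperone and stress genes, 0 held these letters. In Arf1 the windows of both start sites held the letters. They lie 84 bases before the second start, where the uncalled Arf1-202 begins, inside an annotated exon of Arf1. The 120 bases before the first start do not hold them. CCAAT alone was in 19 of 38 promoters against 37.4% of all and 17 of 18 of the ER chaperone and stress genes. It can be a part of the longer elements. A match here is a description of letters and not of a bound site.

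The stretches before the RefSeq starts of 3 of the genes that rose are printed for comparison, 5′ to 3′ on the gene's strand, with CCAAT or its reverse complement ATTGG in capitals. They are chr5:108132621-108132740 (minus strand) for Tmed5, chr6:88084353-88084472 (plus strand) for Rpn1, and chr11:59228271-59228387 (minus strand) for the first start of Arf1, where the stretch ends 4 bases before the start because an annotated exon begins there.
Tmed5: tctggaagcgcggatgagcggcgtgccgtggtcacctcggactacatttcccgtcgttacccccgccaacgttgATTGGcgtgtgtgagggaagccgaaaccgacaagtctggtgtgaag
Rpn1: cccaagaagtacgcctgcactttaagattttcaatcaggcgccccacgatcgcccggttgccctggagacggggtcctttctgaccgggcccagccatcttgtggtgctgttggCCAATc
Arf1: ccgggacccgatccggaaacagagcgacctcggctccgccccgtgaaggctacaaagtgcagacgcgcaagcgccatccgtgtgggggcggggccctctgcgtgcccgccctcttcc
The match begins 46 bases before the start in Tmed5, on the reverse strand, and 6 bases before it in Rpn1. Sar1b has one 67 bases before its start, on the reverse strand, in a stretch that overlaps an exon of the neighbouring gene Sec24a. The printed stretch of Arf1 holds none.

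A second list held 133 further genes of the same route, 100 of them with reads and 50 tested. Of the 50, 9 rose and 4 fell, 26.0% against 33.2% of all genes tested, with a median log2 change of 0.22. Of 14 tested genes for translocation and membrane insertion 2 rose, of 8 for N-glycosylation 3 rose and 2 fell, of 11 for COPII and cargo receptors 3 rose and 1 fell, and of 3 for COPI and the ARF cycle 1 rose and 1 fell. None of 14 tethers, SNAREs and Rabs was called. Some of these calls held in all 15 alternatives, but others were lost in most. The 1 rise for COPI and the ARF cycle was lost in 9 of 15, and 1 of the 3 for COPII and cargo receptors in 11 of 15. Tfg, which rose, and Tmem258, which fell, passed the filter only through the group in which they are higher, so their direction was partly fixed by passing.

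The largest rises in that list were those of Alg1, Yif1b and Emc8. Alg1, which adds the first mannose to the growing sugar chain at the ER, read 4.33, 5.14 and 5.40 CPM in control mice 2, 9 and 14 and 27.9, 19.2 and 18.8 CPM in cold mice 4, 11 and 15, a log2 change of 2.15 ± 0.31 (SE, adjusted p = 0.000531 by edgeR). Yif1b, a membrane protein of ER to Golgi traffic, went from 16.6 ± 3.34 to 57.1 ± 4.75 CPM (SD, n = 3 each; log2 1.80, adjusted p = 0.000400 by edgeR). Emc8, a subunit of the ER membrane insertion complex, went from 3.97 ± 2.36 to 12.8 ± 1.24 CPM (SD, n = 3 each; log2 1.60, adjusted p = 0.00875 by edgeR). In each of these genes, which were chosen by the size of their rise, all cold libraries lay above all controls. The groups were apart, in either direction, in 47.8% of all genes tested. The call of Emc8 was lost without cold 11 and 15 (adjusted p = 0.0544).

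The largest falls were those of Copz2, Tmem258 and Cnih1. Of these, Tmem258 passed the filter only through its control libraries, so its fall was partly fixed by passing. Copz2, the second zeta subunit of COPI, went from 10.7 ± 2.31 to 3.33 ± 1.22 CPM (SD, n = 3 each; log2 -1.65, adjusted p = 0.00801 by edgeR), beside the uncalled change of its paralogue Copz1. Its call was lost without cold 11 and 15 (-1.22, adjusted p = 0.180). Tmem258, a small subunit of oligosaccharyltransferase, went from 4.76 ± 0.41 to 1.99 ± 0.35 CPM (SD, n = 3 each; log2 -1.21, adjusted p = 0.0418 by edgeR) on 39 reads, a call lost in 6 of 7 alternatives. Cnih1, a COPII cargo receptor, went from 38.7 ± 13.3 to 19.7 ± 5.14 CPM (SD, n = 3 each; log2 -0.95, adjusted p = 0.0341 by edgeR), a call lost in 6 of 15. Without cold 11 and 15 its log2 change was -0.57. The cargo receptor Surf4 had a log2 change of 0.11 (-0.74 to 0.95) and Serp1, a protein that stabilises membrane proteins at the channel, one of -0.21 (-0.78 to 0.36). The coat subunits Sec31a and Arcn1 had 5 and 3 reads, all in cold libraries, which have the larger totals, and Sec24d had none.

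ER chaperones and stress genes, which assist folding behind the channel, were read in the same libraries. Of 20 listed genes 9 were tested, 6 rose and 0 fell, where 18.1% of all genes tested rose and 15.1% fell, and the median log2 change was 0.93. Hspa5, the chaperone BiP that KDEL receptors retrieve, read 9.74, 19.5 and 18.0 CPM in control mice 2, 9 and 14 and 177.9, 200.9 and 135.4 CPM in cold mice 4, 11 and 15, a log2 change of 3.47 ± 0.30 (SE, adjusted p = 2.78e-05 by edgeR). No tested member of the 46 genes had a change of that size. Manf, a secreted ER stress protein, had a log2 change of 2.65 and Herpud1, a part of ER-associated degradation, one of 1.48, and both were called. Xbp1, the transcription factor of the response, had a log2 change of 0.54 (-0.61 to 1.69) and was not called, and Hsp90b1 had too few reads to be tested. Whether the 46 genes differ from this list was not tested.

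**Figure D5:**
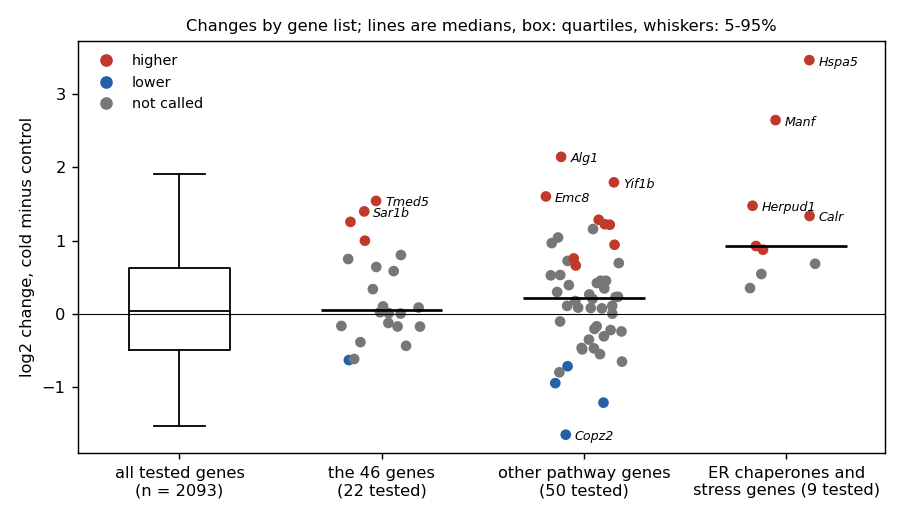
Log2 change in the cold (vertical axis, cold minus control) of all 2093 tested genes (box at the quartiles, whiskers from 5 to 95%), of the 22 tested genes described here, of 50 other genes of the route and of 9 ER chaperone and stress genes, with a line at each median and points coloured by call. The medians are 0.04, 0.05, 0.22 and 0.93, and Hspa5 is the highest point at 3.47.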

How the data were processed

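The deposited files hold, per the file headers, the number of reads counted per Ensembl transcript on each of 2 flow cells, as raw counts that the authors had not normalized. The submitters' processing notes name minimap2 and the build GRCm38; versions, counting tool and strand setting are not given in the sources used here. The extraction text names eWAT, another fat depot, and the tissue label was used. Flow cells were summed per mouse, and 14671 of 14693 transcript identifiers were joined to genes by GENCODE M21 without version. The other 22 took no more than 0.00433% of the reads in any library.

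Tests used edgeR 4.0.16 under R 4.3.3 (filterByExpr by group with minimum count 10, TMM scaling, robust quasi-likelihood F test, Benjamini-Hochberg adjustment over all genes or transcripts tested), after a check on simulated data. Errors of log2 changes are standard errors worked back from F, and intervals are at 95%. Transcript shares were tested with diffSpliceDGE. Copies of members were searched with blastn 2.17.0. Floors are read counts, while intervals come from the quasi-likelihood fit, which takes in the spread between libraries. PCR copies are not independent molecules, so reads are not a count of independent molecules. With 3 mice per group, p-values set the difference between the groups against the spread between these libraries. Alternatives were DESeq2 1.42.0, RLE factors, library totals, no filter, thinning to equal depth, each flow cell, protein-coding transcripts, and leaving out each library. The members and lists were chosen with earlier results of these data known. Every member is named; of the wider route list and the ER chaperones, the called genes with the 3 largest changes in each direction and a few set genes are. Ucp1 and Fabp4 were set as the tissue check.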

Additional observations from a re-analysis of the deposited data

How the results depend on the processing

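Of the 22 tested member genes, 18 had the same call in every alternative that could test them, and Rpn1, Ssr4, Cope and Spcs2 did not. The number of members that rose was 3 to 5 over 15 alternatives. The number that fell was 0 with library totals alone, with no filter and without cold 11 and 15 together, and 0 to 1 without each replicate in turn. Leaving out cold 11 and 15, a choice made after seeing the data, left 1 cold library, whose spread was assumed like that of the controls. It gave 201 genes higher and 120 lower in all, 3 and 0 genes of the wider list, and 3 and 0 member transcripts. Genes of the wider list that fell numbered 1 with no filter and 2 after thinning. Without each replicate in turn, 5 to 8 genes of that list rose and 1 to 4 fell, and 3 to 5 member transcripts rose and 0 to 1 fell. With no filter 0 member transcripts fell, and the median log2 change of all genes moved by 0.255. No called value changed sign. No paired analysis was possible because the control and cold mice share no replicate number. Genes with few reads are limited by depth: the 24 untested members, with 1 to 58 reads each, missed the count filter. The main fit therefore gives no result on a change in them.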
